A study of Mus musculus with 23 samples.

Results

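In skeletal muscle of NZO mice, intermittent fasting was compared with ad libitum feeding through the alternative splicing events that the study's deposited table lists for this pair of groups. All rows of the table's fasting block were taken, which gave 79 events in 73 genes out of 265 events in 221 genes listed for the whole series. The compared mice were 5 males on intermittent fasting and 5 males fed ad libitum, all of the strain NZO/HIBomDife, a polygenic model of obesity and diabetes. Groups were taken from the intervention group label; a separate treatment label names intermittent fasting for every NZO sample, the ad libitum mice included, and was taken here to name the experiment rather than the group. The labels state neither the age of the mice nor the fasting schedule, nor which muscle was taken. The table holds 1 inclusion level per event and group, which is the authors' own value, so no spread between mice can be attached to any level and no difference below has a replicate check. It holds no expression level, so the tissue could not be checked against muscle markers, and the sequencing depth behind the levels is unknown.

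Alternative splicing joins the exons of a primary transcript in more than 1 way. An exon can be kept or skipped, an intron can be removed or retained, and an exon can be shortened or extended at its start (alternative 3' splice site) or at its end (alternative 5' splice site). The inclusion level (PSI, percent spliced in, given here as a fraction from 0 to 1) is the share of transcripts across the event that carry the variable stretch. A stretch whose length is a multiple of 3 nucleotides adds or removes whole codons where it is coding, and any other length shifts the reading frame. In muscle, splicing choices set the isoforms of sarcomere proteins, of membrane skeleton proteins and of many enzymes.

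The authors' deposited table lists an event when its levels differ by 0.2 or more with a probability of 0.9 or more; the probability is the caller's own and is not a p-value. How many events were examined before those limits is not stated, so no count below can be set against a background share. Differences are the fasting level minus the ad libitum level. Positions are mm10 coordinates, taken as 1-based and inclusive of both ends.

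The splice junction of 1 event could be read from sequence, because a RefSeq window (GRCm38.p6) around the start of Gm2065, an lncRNA gene, covers 137 bases of the retained intron of Hmgn3. It is shown because the bases at a listed position could be read only there. The stretch below is chr9:83110973-83111002 on the minus strand. By the listed position it holds the last 10 bases of the exon followed by the first 20 of the intron, and the capitals mark the 5' splice site.

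Hmgn3 junction: agttgaagagGTactttccacaaacacctc

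The intron begins with GT at the listed coordinate 83110992, the dinucleotide at which nearly all introns start. GT also occurs by coincidence, so this position alone does not establish the boundary. Hmgn3, a nucleosome-binding protein, kept this intron of 563 nucleotides at a level of 0.368 under fasting, against 0.719 ad libitum. The other listed stretches were not available as sequence and are described by position and length.

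Of the 79 events, 48 had lower and 31 had higher inclusion under fasting. The absolute difference ran from 0.201 to 0.684, with a median of 0.355, and 14 events differed by at least 0.5, of which 10 were lower and 4 higher under fasting. Genes below are ordered by known role. Where no list is named, the grouping was made after the values were seen and shows no theme. The gene lists were chosen with earlier results of these data known, so counts on them are descriptions and show no theme either. The major form changed sides in 48 events: in 30 the included form was the minority under fasting and the majority ad libitum, and in 18 the reverse held. Inclusion stayed above 0.5 in both groups in 19 events and below 0.5 in both in 12. Levels near an extreme were uncommon, with 8 events above 0.9 and 6 below 0.1 under fasting, and 7 above 0.9 and 1 below 0.1 ad libitum.

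The ad libitum level limits the direction in which an event could be listed. An ad libitum level above 0.8 was present in 17 events, all necessarily listed as lower, and a level below 0.2 in 4 events, all necessarily listed as higher. Among the 58 events that could have been listed either way, 31 were lower and 27 higher under fasting.

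**Figure D1:**
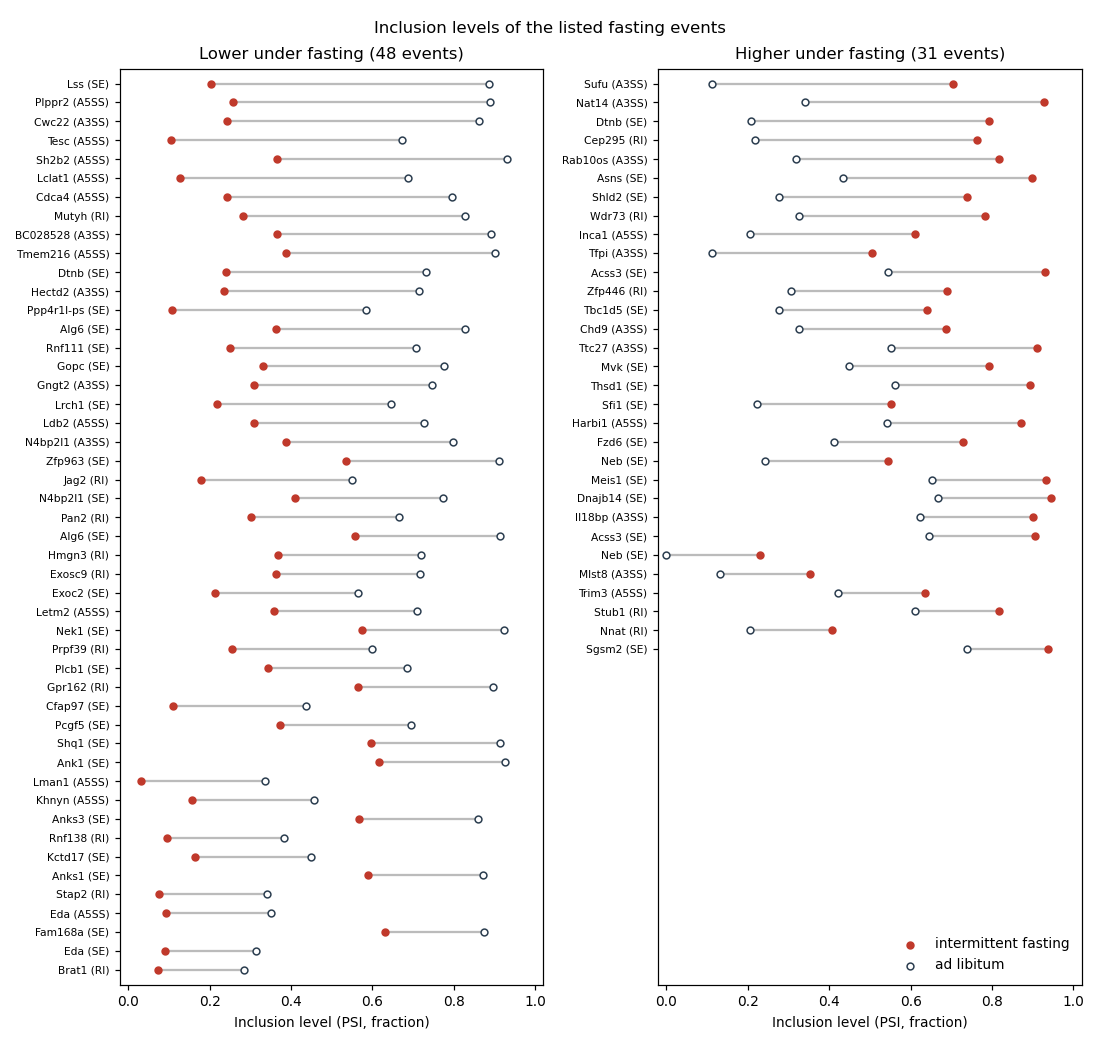
Inclusion level (PSI, fraction, horizontal axis) of each of the 79 fasting events, one row per event with its gene and type (SE skipped exon, RI retained intron, A3SS and A5SS alternative 3' and 5' splice sites). Filled points are intermittent fasting, open points ad libitum, each the authors' single value per group, and rows run from the largest difference (Lss at 0.203 under fasting and 0.887 ad libitum) downwards in each panel.

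Enzymes of lipid metabolism held the largest difference of the fasting events. Lss, lanosterol synthase, closes the ring of the first sterol in cholesterol synthesis. Its skipped exon of 95 nucleotides (chr10:76537569-76537663) had a level of 0.203 under fasting and 0.887 ad libitum, a difference of -0.68. Mvk, mevalonate kinase, acts earlier in the same pathway. An exon of 38 nucleotides near its 5' end (chr5:114444652-114444689) had a level of 0.792 under fasting and 0.450 ad libitum. Of a list of 33 genes of sterol synthesis and LDL uptake, these were the 2 with an event, 1 in each direction, and neither exon has a length divisible by 3.

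On a list of 44 genes of phospholipid and fatty acid metabolism, 2 had an event. Both were lower under fasting, as were 48 of all 79 events. In Plppr2, a phospholipid phosphatase-related membrane protein, a 5' splice site stretch of 16 nucleotides (chr9:21947053-21947068) stood at 0.257 under fasting and 0.890 ad libitum. Lclat1, which remodels the acyl chains of cardiolipin, had a 5' splice site stretch of 11 nucleotides (chr17:73108146-73108156) at 0.128 under fasting and 0.688 ad libitum. That stretch starts 161 nucleotides after the annotated start of the gene.

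Other metabolic and membrane lipid genes were not on those lists. Acss3, a mitochondrial short-chain acyl-CoA synthetase, had 2 neighbouring skipped exons, 107 nucleotides apart, and both had higher inclusion under fasting. The exon at chr10:107023857-107023937 stood at 0.930 under fasting and 0.544 ad libitum, and the next one along the transcript, at chr10:107023654-107023749, stood at 0.907 under fasting and 0.645 ad libitum. Their lengths of 81 and 96 nucleotides are both multiples of 3. Asns, asparagine synthetase, an enzyme known to be induced when amino acids are scarce, included an exon of 272 nucleotides (chr6:7689252-7689523) at 0.898 under fasting, against 0.434 ad libitum. Letm2, a relative of a mitochondrial inner membrane protein, had a 5' splice site stretch at 0.359 under fasting and 0.709 ad libitum. An exon of Plcb1, a phospholipase C that signals downstream of G proteins, was at 0.344 under fasting and 0.685 ad libitum.

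Genes of the membrane skeleton, the dystrophin complex and the sarcomere gave 5 events. Dtnb encodes beta-dystrobrevin, a dystrophin-binding protein known mainly from tissues other than muscle, and had 2 skipped exons 929 nucleotides apart that went opposite ways. The exon of 90 nucleotides (chr12:3773551-3773640) had a level of 0.792 under fasting and 0.208 ad libitum. For the exon of 41 nucleotides (chr12:3774570-3774610) the level was 0.241 under fasting and 0.731 ad libitum. The 2 levels added up to 1.03 under fasting and 0.940 ad libitum, with the longer exon in the majority form of fasted muscle and the shorter one in that of ad libitum muscle. Dtnb was the only one of the 6 genes with 2 fasting events in which the directions differed.

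Ank1, ankyrin 1, links the membrane skeleton to proteins of the membrane and, through a small muscle isoform, to the sarcoplasmic reticulum. Its exon of 24 nucleotides (chr8:23110347-23110370) was included at 0.617 under fasting and 0.925 ad libitum. The list of 31 membrane skeleton and dystrophin complex genes thus had 2 genes with an event, with 1 event higher and 2 lower under fasting. Neb encodes nebulin, the giant thin-filament protein, and was the 1 gene with an event on the list of 36 sarcomere and Z-disc genes. Both of its exons are 108 nucleotides long. The exon at chr2:52257562-52257669 was at 0.229 under fasting and 0.000334 ad libitum, which is the lowest level of all fasting events in either group. For the exon at chr2:52245281-52245388 the level was 0.544 under fasting and 0.244 ad libitum. Nebulin is built of repeated modules, and sharing of reads between its modules was not examined.

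Insulin and nutrient signalling was represented by Sh2b2 and Mlst8. Sh2b2, an adaptor that binds the activated insulin receptor, had a 5' splice site stretch of 4 nucleotides (chr5:136244629-136244632) at 0.366 under fasting and 0.930 ad libitum, and was the 1 gene with an event among 36 on the insulin and glucose list. Mlst8, a subunit of both mTOR complexes, had a 3' splice site stretch of 5 nucleotides at 0.354 under fasting and 0.131 ad libitum. It was not on the list of 31 nutrient-sensing and stress kinases, none of which had a fasting event.

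Among calcium and developmental signalling genes, Tesc, a calcium-binding regulator, had a 5' splice site stretch of 5 nucleotides (chr5:118056439-118056443) at 0.106 under fasting and 0.672 ad libitum. It was the 1 gene with an event of 24 on the list for excitation-contraction coupling and calcium handling. Sufu, the suppressor of Hedgehog signalling, had the largest difference among events with higher inclusion, a 3-nucleotide stretch at a 3' splice site (chr19:46453159-46453161) at 0.704 under fasting and 0.112 ad libitum. Of 33 Hedgehog, Wnt and TGF-beta genes on its list, Sufu was the 1 with an event. Fzd6, a Frizzled receptor for Wnt ligands that was not on that list, included an exon at 0.730 under fasting and 0.411 ad libitum. In Jag2, a ligand of Notch receptors, an intron of 85 nucleotides was retained at 0.179 under fasting and 0.549 ad libitum.

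Eda, ectodysplasin A, is a ligand of the TNF family. Its exon of 139 nucleotides (chrX:100395675-100395813) and the 5' splice site stretch of 17 nucleotides that adjoins it (chrX:100395814-100395830) were both lower under fasting. The exon was at 0.0912 under fasting and 0.314 ad libitum. The extension was at 0.0918 under fasting and 0.350 ad libitum. Neither length is a multiple of 3, whereas the combined length of 156 nucleotides is.

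Secreted, membrane and signalling proteins, as grouped here, went both ways. Tfpi, an inhibitor of the tissue factor pathway of coagulation, had a 3' splice site stretch of 387 nucleotides at 0.506 under fasting and 0.112 ad libitum. Il18bp, which neutralises interleukin 18, had one of 27 nucleotides at 0.901 under fasting and 0.624 ad libitum. An exon of Thsd1, a membrane protein with a thrombospondin domain, was at 0.894 under fasting and 0.561 ad libitum. Lower inclusion was listed for a 19-nucleotide 3' splice site stretch of Gngt2, a G protein gamma subunit (chr11:95845032-95845050, 0.310 under fasting and 0.746 ad libitum). The orphan receptor Gpr162 retained an intron at 0.564 under fasting, against 0.897 ad libitum. Stap2, a signalling adaptor, retained an intron of 70 nucleotides (chr17:55997535-55997604) at 0.0746 under fasting and 0.340 ad libitum. In Anks1, an ankyrin repeat and SAM domain protein, an exon was at 0.589 under fasting and 0.873 ad libitum. Nnat, neuronatin, lay close to the listing limit, with a retained intron at 0.408 under fasting and 0.206 ad libitum.

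RNA-processing genes, as grouped here, had 6 events. All 6 had lower inclusion under fasting, as did 48 of all 79 events. On the list of 71 splicing factors and RNA-binding proteins, 2 genes had an event. Cwc22 is a spliceosome-associated protein that helps to load the exon junction complex, and its 3-nucleotide stretch at a 3' splice site (chr2:77932764-77932766) was at 0.243 under fasting and 0.860 ad libitum. Prpf39, a component of the U1 snRNP in yeast, retained an intron of 103 nucleotides (chr12:65043612-65043714) at 0.255 under fasting and 0.600 ad libitum. The other 4 genes act later in the life of an RNA or in another class of RNA and were grouped here after their values were seen. An intron of Exosc9, a subunit of the RNA exosome, was retained at 0.364 under fasting and 0.716 ad libitum. Pan2, the nuclease of a deadenylase that shortens poly(A) tails, retained an intron at 0.303 under fasting and 0.666 ad libitum. Shq1, an assembly factor of H/ACA ribonucleoproteins, included an exon at 0.597 under fasting and 0.913 ad libitum. Khnyn, a protein with KH and nuclease domains, had a 5' splice site stretch of 60 nucleotides at 0.158 under fasting and 0.456 ad libitum, with a probability in the authors' deposited table of 0.9, the lowest listed.

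Chromatin and transcription genes gave 7 events, of which 4 were lower and 3 higher under fasting. Hmgn3, shown above by its junction, was the 1 gene with an event of 50 on the chromatin list. Chd9, a chromodomain helicase that was not on the list, had a 3-nucleotide 3' splice site stretch at 0.687 under fasting and 0.326 ad libitum. Pcgf5, a Polycomb group ring finger protein, included an exon of 60 nucleotides (chr19:36450564-36450623) at 0.372 under fasting and 0.696 ad libitum. Ldb2, a cofactor of LIM-domain transcription factors and the 1 gene with an event of 26 on the myogenic transcription list, had a 5' splice site stretch of 6 nucleotides (chr5:44479093-44479098) at 0.309 under fasting and 0.726 ad libitum. Meis1, a homeodomain transcription factor, included an exon at 0.932 under fasting and 0.652 ad libitum. The zinc finger gene Zfp446 retained an intron of 191 nucleotides (chr7:12981928-12982118) at 0.688 under fasting and 0.306 ad libitum. Another zinc finger gene, Zfp963, included an exon at 0.535 under fasting and 0.910 ad libitum.

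The list of 56 ubiquitin ligases and deubiquitinases had 3 genes with an event, Pcgf5 among them. All 3 events were lower under fasting, as were 48 of all 79 events. Rnf111, a ligase that recognises SUMO-modified proteins, had an exon of 63 nucleotides (chr9:70502940-70503002) at 0.251 under fasting and 0.707 ad libitum, 376 nucleotides after an annotated start of the gene. Hectd2, a HECT-domain ligase, had a 3-nucleotide 3' splice site stretch (chr19:36601429-36601431) at 0.236 under fasting and 0.713 ad libitum. Other genes with a role in ubiquitination were not on the list. Stub1 couples chaperones to ubiquitination, and its retained intron of 90 nucleotides was at 0.816 under fasting and 0.611 ad libitum. Rnf138, a ligase with a role in DNA repair, retained an intron of 1569 nucleotides at 0.0963 under fasting and 0.382 ad libitum. Trim3 had a 5' splice site stretch at 0.634 under fasting and 0.421 ad libitum. Kctd17, an adaptor of cullin 3 ligases, included an exon at 0.165 under fasting and 0.449 ad libitum.

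N4bp2l1 had adjoining events like those of Eda, at the other end of an exon. Its exon of 79 nucleotides (chr5:150593140-150593218) stood at 0.409 under fasting and 0.774 ad libitum. The 3' splice site stretch of 219 nucleotides directly upstream of it on the minus strand (chr5:150593219-150593437) stood at 0.388 under fasting and 0.797 ad libitum. Events that adjoin may share reads, so in Eda and in N4bp2l1 the 2 events may not be separate observations.

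On the list of 59 vesicle trafficking genes, 2 had an event. Both were lower under fasting, as were 48 of all 79 events. Gopc, a Golgi scaffold protein, had an exon of 24 nucleotides (chr10:52357342-52357365) at 0.331 under fasting and 0.775 ad libitum. Exoc2, a subunit of the exocyst that tethers vesicles to the plasma membrane, had an exon of 59 nucleotides (chr13:30946365-30946423) at 0.214 under fasting and 0.565 ad libitum. Off the list, Tbc1d5, a GTPase-activating protein for Rab7, included an exon of 66 nucleotides at 0.640 under fasting and 0.276 ad libitum. Sgsm2, another regulator of Rab proteins, lay nearest of all events to the limit of 0.2, with an exon at 0.938 under fasting and 0.737 ad libitum. Rab10os, an lncRNA whose position overlaps that of Rab10, had a 3' splice site stretch of 128 nucleotides (chr12:3249739-3249866) at 0.817 under fasting and 0.318 ad libitum.

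In the early secretory pathway, Alg6 adds the first glucose to the sugar chain used for N-glycosylation. It had 2 skipped exons 1335 nucleotides apart, and both were lower under fasting. The exon of 65 nucleotides (chr4:99742355-99742419) was at 0.364 under fasting and 0.828 ad libitum. The exon of 186 nucleotides (chr4:99743755-99743940) was at 0.557 under fasting and 0.912 ad libitum. Lman1, a cargo receptor between the endoplasmic reticulum and the Golgi, had a 5' splice site stretch of 4 nucleotides at 0.0309 under fasting, the lowest fasting level listed, and 0.335 ad libitum. Dnajb14, a J-domain cochaperone of the endoplasmic reticulum, had an exon at 0.946 under fasting, the highest fasting level listed, and 0.667 ad libitum.

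Genes of DNA repair and the cell cycle were listed in both directions. Mutyh, a glycosylase that removes adenine mispaired with oxidised guanine, retained an intron of 203 nucleotides (chr4:116818038-116818240) at 0.281 under fasting and 0.827 ad libitum. Shld2, a subunit of the shieldin complex, included an exon of 66 nucleotides (chr14:34269471-34269536) at 0.738 under fasting and 0.278 ad libitum. Brat1, which interacts with the repair kinase ATM, retained an intron at 0.0744 under fasting and 0.284 ad libitum. Cdca4 had the longest 5' splice site stretch, 457 nucleotides (chr12:112828849-112829305), at 0.242 under fasting and 0.796 ad libitum. For Inca1, an inhibitor of cyclin-dependent kinase, a 5' splice site stretch was at 0.611 under fasting and 0.207 ad libitum.

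Centrosome and cilium genes likewise divided. Cep295, a centriole protein, had the longest event of the comparison, a retained intron of 4443 nucleotides (chr9:15318057-15322499) at 0.763 under fasting and 0.219 ad libitum. Sfi1, a centrin-binding protein, included an exon at 0.551 under fasting and 0.223 ad libitum. Tmem216, a protein of the ciliary transition zone, had a 5' splice site stretch of 14 nucleotides (chr19:10555699-10555712) at 0.387 under fasting and 0.902 ad libitum, beginning 51 nucleotides after an annotated start. Nek1, a kinase linked to cilia, included an exon of 75 nucleotides at 0.574 under fasting and 0.923 ad libitum. In Cfap97 an exon of 135 nucleotides was at 0.110 under fasting and 0.436 ad libitum.

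The remaining genes have less certain roles. Higher inclusion was listed for a 3-nucleotide 3' splice site stretch of Nat14 (chr7:4923208-4923210, 0.927 under fasting and 0.340 ad libitum). Another such stretch, in Ttc27, was at 0.910 under fasting and 0.551 ad libitum. Wdr73 retained an intron of 1066 nucleotides (chr7:80891910-80892975) at 0.783 under fasting and 0.326 ad libitum. Harbi1, derived from a transposase, had a 5' splice site stretch of 186 nucleotides at 0.870 under fasting and 0.542 ad libitum. Inclusion was lower for a 3-nucleotide stretch of BC028528 (chr3:95885069-95885071, 0.365 under fasting and 0.891 ad libitum). The pseudogene Ppp4r1l-ps had the longest skipped exon, 453 nucleotides (chr2:173594976-173595428), at 0.108 under fasting and 0.583 ad libitum, and its reads may be shared with the parent gene. Exons were also lower in Lrch1 (0.218 under fasting and 0.646 ad libitum), in Anks3 (0.567 under fasting and 0.859 ad libitum) and in Fam168a (0.631 under fasting and 0.875 ad libitum).

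The probability that the authors' deposited table attaches to each difference had a median of 0.936 and was 0.99 or more in 6 events. These 6 in the authors' deposited table were the Lss exon and the Neb exon at chr2:52257562-52257669, both at 1.0, Cdca4 at 0.999, Plppr2 at 0.998, Sh2b2 at 0.996 and Ppp4r1l-ps at 0.995. The Neb exon was among them with a difference of 0.23. Values from 0.97 to 0.99 in the authors' deposited table were those of Asns (0.989), the longer exon of Dtnb and the Acss3 exon of 81 nucleotides (0.986 each), Cwc22 (0.984), Nat14 (0.982), Lclat1 (0.98), Mutyh (0.978), Wdr73 and Gopc (0.976 each) and Cep295 (0.975).

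Among the events described above by position, the authors' deposited table gave 0.94 to 0.97 to Tesc and BC028528 (0.968 each), Rab10os (0.962), Rnf111 (0.956), Pcgf5 (0.955), Ldb2 (0.95), Sufu (0.949), the second Neb exon (0.946), Tmem216 (0.941) and the Alg6 exon of 65 nucleotides (0.94). The shorter Dtnb exon had 0.939 in the authors' deposited table, below the 0.986 of its longer neighbour. The retained intron of Hmgn3 had 0.93, N4bp2l1 had 0.929 and 0.922, Ank1 had 0.927 and Shld2 had 0.924 in the authors' deposited table. Of the other events described above by position, the authors' deposited table gave lower values to Hectd2 (0.919), Gngt2 (0.918), Eda (0.917 and 0.905), Prpf39 (0.916), Mvk (0.911), the Alg6 exon of 186 nucleotides, Zfp446 and Stap2 (0.908 each), the Acss3 exon of 96 nucleotides (0.905) and Exoc2 (0.904). Every one of the 25 largest differences had 0.918 or more in the authors' deposited table.

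By type, the comparison held 37 skipped exons, 15 retained introns, 13 alternative 3' splice sites and 14 alternative 5' splice sites. Lower inclusion under fasting was listed for 22 of 37 skipped exons, 10 of 15 retained introns and 11 of 14 alternative 5' splice sites, and for 5 of 13 alternative 3' splice sites. The division by type rests on few events and was not tested. The plot of fasting against ad libitum levels shows all types on both sides of the diagonal.

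**Figure D2:**
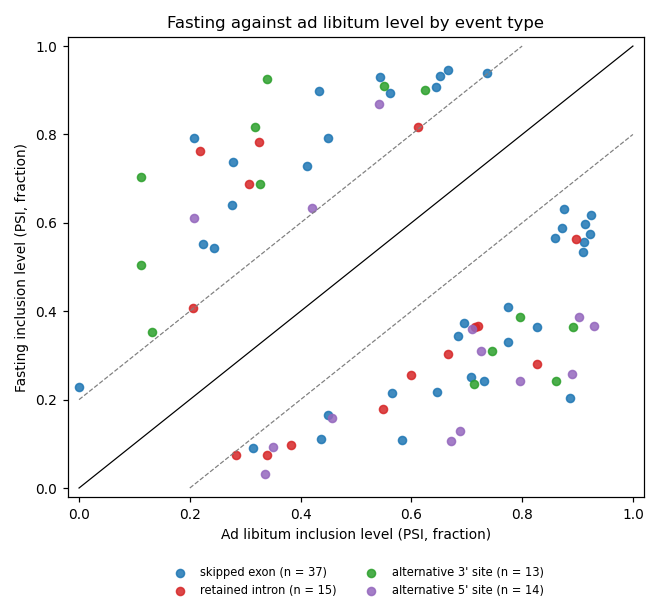
Fasting level (vertical axis) against ad libitum level (horizontal axis), both PSI as a fraction, for the 79 events coloured by type. The solid line marks equal levels and the dashed lines the listing limit of 0.2, so that no point can lie between them. Above the diagonal lie 31 events and below it 48.

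Skipped exons ran from 24 to 453 nucleotides, with a median of 88. Their length was divisible by 3 in 19 of 37 (51.4%, exact 95% binomial interval over listed events 34.4% to 68.1%). Of the 19, 9 were higher and 10 lower under fasting, and of the 18 other exons 6 were higher and 12 lower. Without the 2 exons of Neb, 17 of 35 lengths were divisible by 3. The 37 exons came from 33 genes, and the interval above counts exons of the same gene as separate. The exons of Eda and N4bp2l1 are counted by their own length, without the stretch that adjoins them. Of the 10 skipped exons that the authors' deposited table gives a probability of 0.95 or more, 8 had such a length. Whether an exon is coding was not determined here, so a length does not show what happens to the protein.

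The 3 skipped exons of at most 30 nucleotides were those of Ank1 and Gopc, at 24 nucleotides each, and of Fam168a, at 27. Exons this short are known as microexons and are best described in neurons. All 3 lengths are multiples of 3, and all 3 exons were lower under fasting, as were 22 of the 37 skipped exons.

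Alternative 3' splice sites were mostly small shifts. A stretch of exactly 3 nucleotides was listed in 7 of the 13, in Cwc22, Sufu, Nat14, BC028528, Hectd2, Chd9 and Ttc27. Acceptor sites 3 nucleotides apart typically arise where AG occurs again in the next triplet, and the choice between them adds or removes a single codon where the stretch is coding. Inclusion of the triplet was higher under fasting in 4 of the 7 and lower in 3. The confidence class was 2 in 3 of the 7, those of Cwc22, Hectd2 and Ttc27, in the authors' deposited table, which does not state what the class means. Over all fasting events the class was 2 in 10 of 79. The others in that class were Ldb2, Zfp446, Zfp963, Fzd6, Meis1, Dnajb14 and Stap2. Alternative 5' splice sites were longer, with a median of 16.5 nucleotides, and 3 of 14 lengths were divisible by 3, against 10 of 13 for the 3' sites. Retained introns ran from 70 to 4443 nucleotides, with a median of 283.

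**Figure D3:**
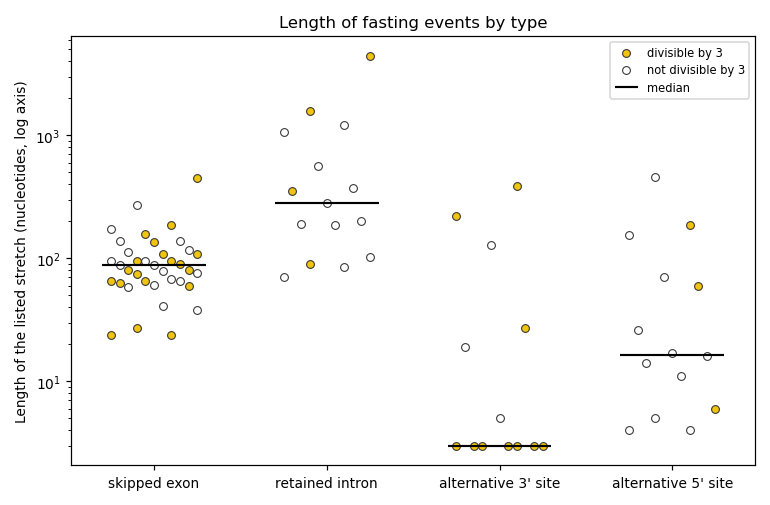
Length of the listed stretch (nucleotides, log axis) for each fasting event, by type. Filled points have a length divisible by 3, open points do not, and the bar is the median, which was 88 for skipped exons, 283 for retained introns, 3 for alternative 3' and 16.5 for alternative 5' splice sites. The row of points at 3 nucleotides holds the 7 triplet shifts.

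Events were placed along the RefSeq span of their gene, all 79 inside it. In the first 10% of the span lay 8 of the 14 alternative 5' splice sites, those of Sh2b2, Lclat1, Cdca4, Tmem216, Inca1, Letm2, Harbi1 and Trim3. The same stretch of the gene held 3 of 37 skipped exons (Rnf111, Mvk and Cfap97), 1 of 15 retained introns (Exosc9) and none of the 13 alternative 3' splice sites. A first exon has a 5' splice site and no 3' splice site, so types differ in where they can occur. Of the 8 early 5' splice sites, 5 were lower and 3 higher under fasting. A RefSeq start was matched for 10 of the 14 genes, and 6 of these 10 stretches began within 1000 nucleotides after a start, between 51 nucleotides in Tmem216 and 308 in Sh2b2. The other 6 alternative 5' splice sites lay between 66.7% of the span, in Khnyn, and 98.8%, in Eda. All 6 were lower under fasting, as were 11 of all 14 alternative 5' splice sites.

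**Figure D4:**
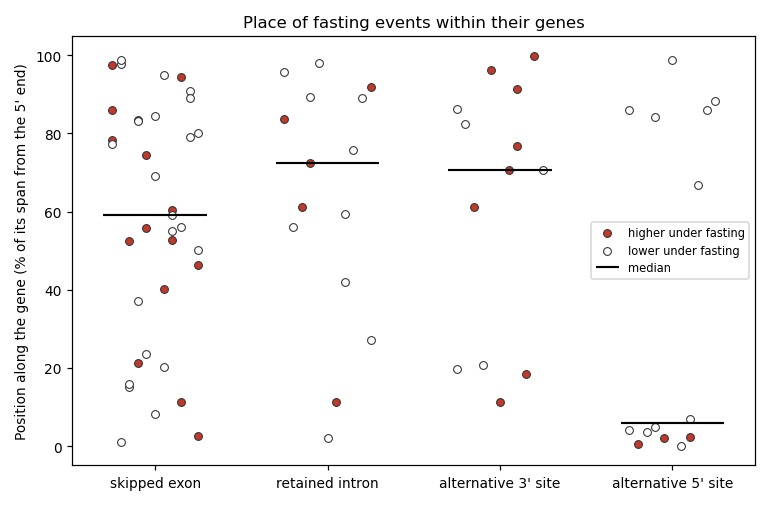
Position of each fasting event along its gene (percent of the RefSeq span, from the 5' end on the gene's strand), by event type. Filled points were higher and open points lower under fasting, and bars are medians. The alternative 5' splice sites form a low group of 8 under 10% and a high group of 6 at 66.7% and above.

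At 8 events RefSeq places a further gene, and reads of the 2 genes may be mixed there, since the sources used here do not say whether the libraries kept the strand. These are Cdca4, BC028528, Rab10os, Hmgn3, Letm2, Gpr162, Stub1, whose position overlaps Jmjd8, and Nnat, which overlaps Blcap. Whether expression of the overlapping gene contributes to these levels was not tested.

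Muscle of NZO mice on caloric restriction (3 samples) was set by the authors against the same ad libitum mice, so the 2 dietary comparisons are not independent. They had 10 listed events in common, which is 12.7% of the fasting and 8.77% of the caloric restriction events. Zfp446, among these 10, is given below with exercise. Values at identical positions and types are given side by side, with the ad libitum level of the fasting block, which differed from that of the caloric restriction block by at most 0.0053. The Cwc22 triplet was at 0.243 under fasting, 0.379 under caloric restriction and 0.860 ad libitum. For the Hectd2 triplet the level was 0.236 under fasting, 0.158 under caloric restriction and 0.713 ad libitum. The Neb exon had 0.229 under fasting, 0.373 under caloric restriction and 0.000334 ad libitum. Fasting thus lay between caloric restriction and ad libitum in Hectd2 and Neb, and beyond caloric restriction in Cwc22. The Cwc22 and Hectd2 triplets had confidence class 2 under fasting and 1 under caloric restriction in the authors' deposited table.

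The Rnf111 exon was at 0.251 under fasting, 0.223 under caloric restriction and 0.707 ad libitum. The Exoc2 exon was at 0.214 under fasting, 0.116 under caloric restriction and 0.565 ad libitum. The Hmgn3 intron was at 0.368 under fasting, 0.239 under caloric restriction and 0.719 ad libitum. In all 3 of these genes the fasting level lay between the other levels. The Pcgf5 exon was at 0.372 under fasting, 0.363 under caloric restriction and 0.696 ad libitum, and the Stap2 intron at 0.0746 under fasting, 0.0774 under caloric restriction and 0.340 ad libitum, so that the diets were at most 0.00974 apart in both. The Gopc exon was at 0.331 under fasting, 0.380 under caloric restriction and 0.775 ad libitum.

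**Figure D5:**
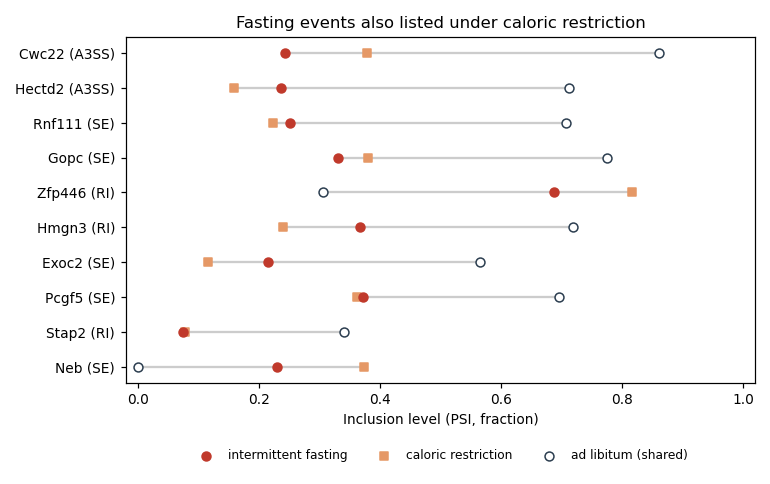
Inclusion level (PSI, fraction) at each fasting event that is also listed under caloric restriction at the identical position and type. Filled circles are intermittent fasting, squares caloric restriction and open circles the ad libitum mice that both share. The Stap2 points of the diets nearly coincide at 0.0746 and 0.0774, and the largest gap between the diets, 0.144, is in Neb.

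Neb had 8 further exons listed under caloric restriction and not under fasting, at 0.235 to 0.465 under caloric restriction and 0.000324 to 0.0646 ad libitum. Hectd2 had, besides its shared triplet, an exon of 110 nucleotides under caloric restriction (0.907, against 0.668 ad libitum). In other genes the diets were listed with different stretches. Dtnb had an exon of 90 nucleotides under caloric restriction (chr12:3732618-3732707, 0.906, against 0.639 ad libitum) that is none of its 2 fasting exons, although the first of these is also 90 nucleotides long. Cep295 had an exon of 240 nucleotides (0.905 under caloric restriction and 0.595 ad libitum) in place of the long intron listed under fasting. In Ldb2 it was an exon of 143 nucleotides (0.880 under caloric restriction and 0.478 ad libitum), and in Ppp4r1l-ps one of 95 nucleotides (0.189 under caloric restriction and 0.821 ad libitum). An event missing from a list may have been below the authors' limits and is not shown to be unchanged.

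Exercise was measured in C57BL/6J mice with their own sedentary controls (5 samples each) and listed with 72 events. The retained intron of Zfp446 was the 1 fasting event also listed there, which is 1.27% of the fasting and 1.39% of the exercise events. It was at 0.688 under fasting and 0.306 ad libitum in NZO muscle, and at 0.880 exercised and 0.503 sedentary in C57BL/6J muscle. Under caloric restriction it was at 0.817. Its confidence class in the authors' deposited table was 2 in the fasting block. Neb and Hectd2 also had exercise events, but at other exons, 5 in Neb and 1 in Hectd2. The Hectd2 exon, at 0.905 exercised and 0.655 sedentary, is the same exon of 110 nucleotides that was listed under caloric restriction. Strain and intervention differ together between these comparisons and cannot be told apart.

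Gene lists without any fasting event were nutrient-sensing and stress kinases, autophagy and lysosome, circadian clock, and the 5 lists of markers of endothelial, immune, adipocyte, fibroblast, and nerve, satellite and smooth muscle cells. In all, 19 of the 630 distinct genes on 20 lists had an event. The table gives no expression, so the amount of these cell types in the samples cannot be read from it.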

How the data were processed

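RNA of skeletal muscle was extracted with a column kit and a DNase step, per the labels' protocols. The authors analysed splicing with Whippet and rMATS, per the labels' design text. Neither the tool behind each value nor its version, the aligner or the depth is stated there. Positions are on mm10, a build named in the submitters' processing notes. The deposited levels are fractions from 0 to 1, 1 per event and group, per the file headers. How samples were combined is not stated. The deposited difference is ad libitum minus fasting, and its sign was turned here. It equals the levels' difference to within 1e-05.

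Groups follow the intervention label. No test was run, because there is no value per mouse. Events were counted, with exact Clopper-Pearson 95% intervals that cover counting over listed events only. The 95% interval of the median difference was read from the ranked differences, by exact binomial ranks. Genes were matched by symbol to RefSeq (GRCm38.p6), all 73 of them: 71 protein-coding, 1 lncRNA and 1 pseudogene. Starts came from RefSeq windows of 250 bases before to 50 after a start, held for 53 of the 73 genes. The events and gene lists were chosen with earlier results of these data known. Every gene could be named. Positions, lengths and probabilities are printed for the 25 largest differences, genes with 2 events, list members and events listed in another block. Python 3.11.15, pandas 2.3.3, scipy 1.17.1, numpy 2.4.6 and matplotlib 3.10.9 were used, and the counting was checked on a simulated table.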

Additional observations from a re-analysis of the deposited data

How the results depend on the processing

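The share of events with higher inclusion under fasting, 39.2%, was 34.5% to 46.4% across 4 alternatives (probability at least 0.95, absolute difference at least 0.3, confidence class 1 alone, 1 event per gene) and stayed inside its interval of 28.4% to 50.9%. The median absolute difference of 0.355 was 0.469 for probabilities from 0.95 and 0.399 at a difference of at least 0.3, and by construction stricter limits keep larger differences. The share of skipped exons with a length divisible by 3, 51.4%, was 80.0% (8 of 10) at a probability of at least 0.95, and the cause was not tested. With starts counted from 0 it was 18.9%, because every length is then 1 shorter. The other alternatives for the median difference stayed inside its interval of 0.333 to 0.386. Those for the share of skipped exons stayed inside its interval of 34.4% to 68.1%. Stricter limits and 1 event per gene keep parts of the same listed events, so a value inside its interval was likely beforehand and does not show stability. Counting any overlap as the same position left the number of events shared with another block as it was. The GT at the Hmgn3 position bears on the end coordinate of that event, not on how starts are counted. In Eda and in N4bp2l1, the adjoining stretches have 0 nucleotides between them when starts are counted from 1. Starts counted from 0 would leave a gap in each pair, so 18.9% is not the reading that these positions give. No paired analysis was possible because each group has a single deposited level and no label links fasted to ad libitum mice. For the same reason no mouse could be left out in turn, and the weight of any 1 mouse is unknown.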
